A study of Mus musculus with 12 samples.

Results

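The 10 genes described here encode the proteins that license DNA for replication: the 6 subunits of the MCM2-7 helicase (Mcm2, Mcm3, Mcm4, Mcm5, Mcm6 and Mcm7), the origin recognition subunit Orc6, the loading factors Cdc6 and Cdt1, and geminin (Gmnn). They were chosen by name, through the gene name or RefSeq accession of each array probe, and comprise 10 of 21305 named genes and 13 of 41174 probes on the array. Levels were read in 12 single blastomeres, both cells of each of 6 mouse embryos that were split at the 2-cell stage. The embryos came from natural matings of CF-1 mice, were flushed from the oviduct about 36 h post coitus, carried no treatment or engineered allele, and were pried apart so that each cell gave 1 RNA sample and 1 array. The embryos of experiment 1 are named pairs D, I and L, those of experiment 2 pairs D, G and H, and the letter D names different embryos in them. The labels number the cells of an embryo 1 and 2 without saying what the numbers stand for, and do not say which embryos shared a mother. The question the design poses is how far sister blastomeres resemble each other, and whether embryos differ.

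Licensing prepares each origin to fire once per cell cycle. The origin recognition complex, with Orc6 as its smallest subunit, marks the origin. Cdc6 and Cdt1 then load the ring-shaped MCM2-7 helicase onto DNA in late mitosis and G1. Once S phase has begun, geminin binds Cdt1 and blocks further loading, so that DNA is not replicated again before division. Eggs store much of this machinery as maternal mRNA and protein, because cleavage divisions follow each other while the embryonic genome is only starting to be transcribed.

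Promoters are shown for 4 of the genes on which the results below turn: Mcm6 and Cdt1, whose levels followed each other across cells, Mcm5, the gene that passed between embryos, and Orc6, which had the smallest adjusted p between the experiments. Each window runs from 250 bases before to 50 bases after the annotated start, 5′ to 3′ along the gene, from RefSeq on build GRCm38.p6. The windows are chr1:128359656-128359955 on the minus strand for Mcm6, and on the plus strand chr8:122567765-122568064 for Cdt1, chr8:75109259-75109558 for Mcm5 and chr8:85299382-85299681 for Orc6. Capitals mark matches to words of the kind E2F factors bind (TTTGGCGC, TTTCCCGC, TTTCGCGC or TTTGCCGC) and to the CCAAT box, on either strand. E2F factors are the classic transcriptional drivers of S phase genes.
Mcm6: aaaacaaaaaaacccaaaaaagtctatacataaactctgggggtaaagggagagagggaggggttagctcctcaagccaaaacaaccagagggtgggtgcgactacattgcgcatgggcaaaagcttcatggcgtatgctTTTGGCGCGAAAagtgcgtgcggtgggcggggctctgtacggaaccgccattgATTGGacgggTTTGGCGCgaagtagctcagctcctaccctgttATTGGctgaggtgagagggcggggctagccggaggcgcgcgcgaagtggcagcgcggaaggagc
Cdt1: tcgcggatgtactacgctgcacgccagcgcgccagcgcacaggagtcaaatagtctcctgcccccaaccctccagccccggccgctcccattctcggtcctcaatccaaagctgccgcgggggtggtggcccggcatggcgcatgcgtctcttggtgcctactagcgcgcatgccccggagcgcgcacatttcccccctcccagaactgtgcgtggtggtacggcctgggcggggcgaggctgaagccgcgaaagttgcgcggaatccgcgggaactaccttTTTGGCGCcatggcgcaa
Mcm5: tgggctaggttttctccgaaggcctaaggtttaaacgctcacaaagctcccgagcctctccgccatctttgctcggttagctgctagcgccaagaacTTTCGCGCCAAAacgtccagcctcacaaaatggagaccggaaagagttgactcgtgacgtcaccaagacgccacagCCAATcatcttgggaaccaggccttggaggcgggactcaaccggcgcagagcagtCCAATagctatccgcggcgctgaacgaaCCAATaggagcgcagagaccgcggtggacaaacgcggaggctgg
Orc6: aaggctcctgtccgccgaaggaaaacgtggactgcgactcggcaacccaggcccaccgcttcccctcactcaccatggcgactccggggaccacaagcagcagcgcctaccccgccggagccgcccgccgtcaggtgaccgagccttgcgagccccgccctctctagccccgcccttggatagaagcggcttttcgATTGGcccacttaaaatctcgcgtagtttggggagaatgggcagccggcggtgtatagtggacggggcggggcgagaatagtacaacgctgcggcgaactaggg

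The Mcm6 window held 3 E2F-type words, at -110, -106 and -47 from the start, counting the leftmost base of each word along the gene. The first pair of these overlap on opposite strands, as do the words at -153 and -149 in the Mcm5 window. Cdt1 held 1 such word, at 33 bases after the start, and Orc6 held a CCAAT box at -54 and no E2F-type word. Over the 8 genes with a window in the table, 6 held at least 1 E2F-type word (Mcm3, Mcm5, Mcm6, Mcm7, Cdc6 and Cdt1), against 2.26% of 32851 windows of the same length and 5.01% of 3756 genes that were measured on every array and had a window. The CCAAT box was in 6 of the 8 (Mcm2, Mcm3, Mcm5, Mcm6, Mcm7 and Orc6), against 37.4% of all windows and 44.1% of those 3756 genes. Mcm4 and Gmnn are named only. A match is a run of letters and not a measured binding site.

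The arrays are Agilent whole mouse genome arrays hybridised with RNA amplified in 2 rounds, and a probe was counted as measured where its spots were well above background. Between 22.1 and 41.7% of spots were so in experiment 1 and 31.2 to 78.8% in experiment 2. Of 14 oocyte and early embryo markers, 11 to 14 were measured in each cell, and of 10 cumulus and granulosa markers 0 to 4 were in experiment 1 and 1 to 8 in experiment 2. The experiments also differed in dye, scan and slides, so experiment cannot be told apart from these. Only the twins replicate an embryo, so p-values over embryos are set against the spread between twin cells and their arrays. Those between experiments also rest on the spread between embryos. Those by cell number rest on how the twin difference varied from embryo to embryo. The number of cells and arrays limits the precision of each.

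Levels are log2 of signal scaled to each array, so they compare 1 gene across cells and not genes with each other. All 10 genes had a probe measured on all 12 arrays.

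**Figure D1:**
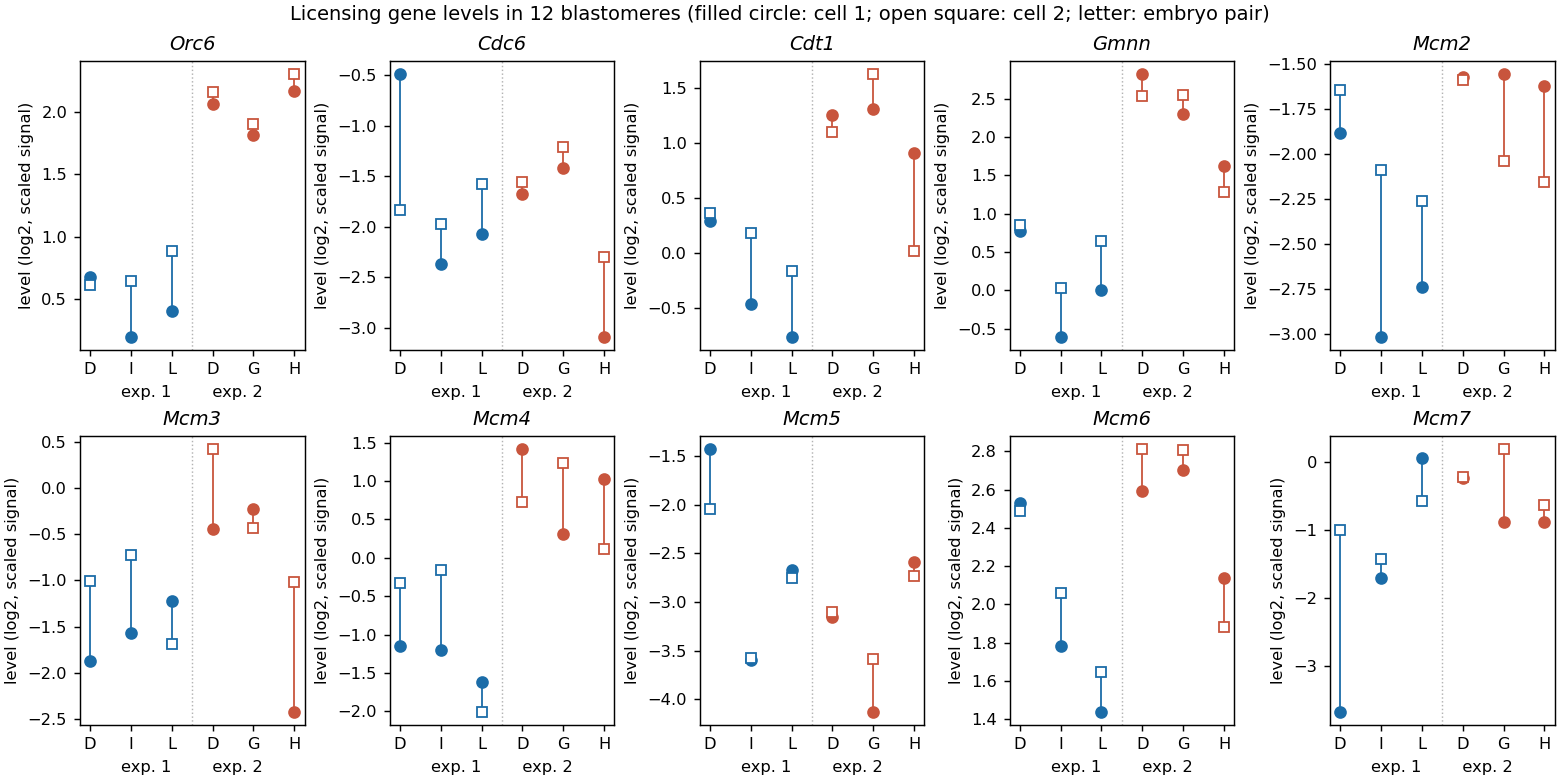
Level of each licensing gene in each of 12 blastomeres, as log2 of the scaled signal (vertical axis, own range per gene), by embryo pair (horizontal axis), with experiment 1 in blue and experiment 2 in red. Filled circles are cell 1 and open squares cell 2, joined within an embryo; the cells of experiment 2 lie above all those of experiment 1 for Orc6, Gmnn and Mcm4.

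Geminin, Orc6 and Mcm4 were called higher in experiment 2 than in experiment 1, and no licensing gene was called lower. Under 2 of 25 alternatives, given below, these calls were lost. Geminin, the inhibitor of Cdt1, lay between -0.60 and 0.85 in the 6 cells of experiment 1 (median 0.34) and between 1.29 and 2.82 in the 6 cells of experiment 2 (median 2.42). The lowest cell of experiment 2 was thus above the highest of experiment 1. The fitted difference was 1.90 ± 0.35 on the log2 scale (SE, n = 6 cells against 6), or 3.74-fold, at a limma adjusted p of 0.00697. The cells of an embryo are not independent, which the fit takes up as a random block; on embryo means, 3 against 3, Gmnn missed the threshold (limma adjusted p = 0.0736), while Orc6 (0.0213) and Mcm4 (0.0496) passed.

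Orc6 was the steadiest of the 10 genes within each experiment. Its cells ranged from 0.20 to 0.88 in experiment 1 (median 0.63) and from 1.81 to 2.30 in experiment 2 (median 2.11), with no overlap. Experiment 2 was higher by 1.50 ± 0.17 (SE), or 2.82-fold, at a limma adjusted p of 0.000462.

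Mcm4, a subunit of the helicase's catalytic core, went from a range of -2.00 to -0.15 (median -1.17) to a range of 0.12 to 1.41 (median 0.88). Again the experiments did not overlap. The difference was 1.88 ± 0.43 (SE), or 3.68-fold, at a limma adjusted p of 0.0192. Leaving out cell 1 of pair L in experiment 1 brought that adjusted p to 0.0696, with a difference of 1.86.

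Cdt1, the loading factor that geminin blocks, had a difference of 1.13 ± 0.33 (SE) and missed the threshold (limma adjusted p = 0.0582). Its cells ran from -0.76 to 0.37 in experiment 1 (median 0.01) and from 0.02 to 1.62 in experiment 2 (median 1.18). The experiments overlapped because cell 2 of pair H, at 0.02, was the 1 cell of experiment 2 within the range of experiment 1. Without that cell, the lowest of experiment 2, the difference was 1.31 and Cdt1 passed, at a limma adjusted p of 0.0103. Leaving out the lowest cell raises the difference by construction. Cdt1 passed under 4 of 25 alternatives, with limma adjusted p from 0.0103 to 0.519 over all 25. On embryo means it missed the threshold (limma adjusted p = 0.143).

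The other loading factor, Cdc6, showed no such difference: its cells ran from -2.37 to -0.49 (median -1.90) in experiment 1 and from -3.08 to -1.21 (median -1.61) in experiment 2. The estimate was -0.16 ± 0.43 (SE; limma adjusted p = 0.857), and its sign turned under 4 of 25 alternatives. The remaining helicase subunits did not pass. Mcm7 (0.94 ± 0.64), Mcm3 (0.66 ± 0.49), Mcm2 (0.52 ± 0.29) and Mcm6 (0.50 ± 0.25) had estimates above 0 and Mcm5 (-0.54 ± 0.41) one below 0, with SE and limma adjusted p from 0.323 to 0.521. So the 6 subunits of 1 complex had unequal estimates, with the median of the 6 at 0.59.

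**Figure D2:**
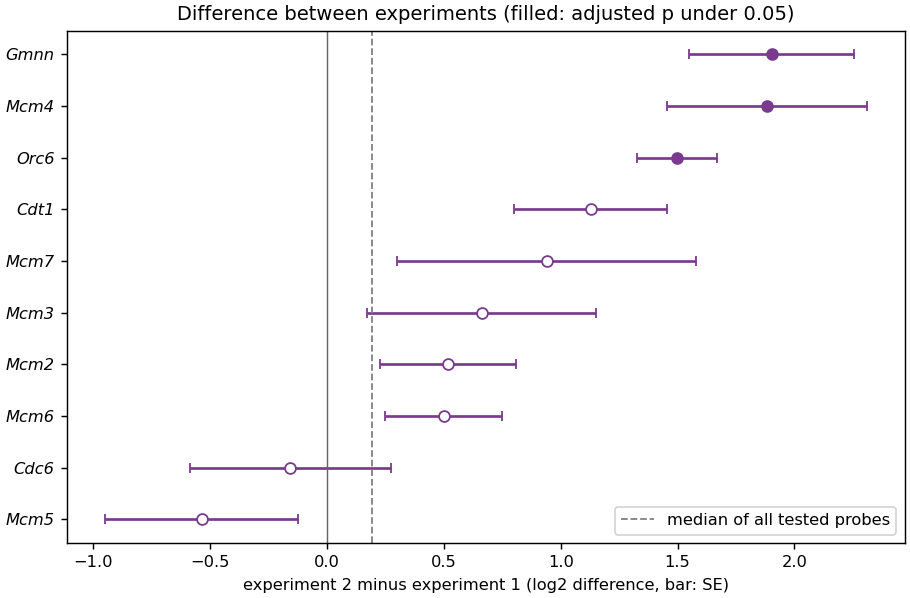
Difference between experiment 2 and experiment 1 for each licensing gene (horizontal axis, log2 difference; bars, SE of the fit; n = 6 cells against 6), with filled points for a limma adjusted p under 0.05 and a dashed line at the median of all tested probes, 0.19. Gmnn, Mcm4 and Orc6 are filled and lie to the right, from 1.50 to 1.90.

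In all, 3 of 10 licensing genes were called, 3 of them higher, where 8.13% of the 16700 tested probes were called with 3.96% called higher and 4.16% called lower in experiment 2. Among the 5848 probes measured on all 12 arrays, where all 10 genes lie, 11.3% were called higher when fitted alone, and 4 licensing genes were, Cdt1 being the fourth (limma adjusted p = 0.0287). The 6 cells of experiment 2 lay above all 6 of experiment 1 for 3 of 10 genes, against 3.68% of 16682 tested probes with a value in every cell and 7.54% of those 5848. The median difference of the 10 genes was 0.80, with 8 above 0. Genes measured on all 12 arrays had a median of 0.05, with 52.1% above 0.

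The scaling and the floor bear on these calls. Dividing by the 75th percentile of all probes brought its own floor, at log2 of 0.15, above that percentile on every array. Division and floor together took the median of all tested probes from 0.19 to 0.0021. The split of calls went from 662 higher and 695 lower to 22 and 150. In this setting 0 licensing genes were called, with limma adjusted p of 0.0840 for Gmnn, 0.374 for Orc6 and 0.285 for Mcm4. Their estimates were 1.84, 1.44 and 1.82, against 1.90, 1.50 and 1.88 in the main scaling. Their differences beyond the median of all tested probes were 1.71, 1.30 and 1.69 in the main scaling and 1.84, 1.44 and 1.82 in the other. The median in the other setting depends on its floor, so these sets of values are not directly comparable. A separate floor for each array also left 0 called (0.0528, 0.0505 and 0.0912) with unchanged estimates, and 98 probes called higher and 283 lower.

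Other transcripts moved with experiment as well. The 10 stroma and muscle markers were all lower in experiment 2, where their summed level was -0.80 to 0.18 on the log2 scale against 3.72 to 6.56 in experiment 1. Oviduct epithelium markers were lower for 4 of 8 tested, at -0.95 to 0.94 against 2.88 to 5.72, and blood and macrophage markers for 2 of 5, at -1.18 to -0.52 against 2.60 to 7.98. Genes of G2 and mitosis went the other way: 4 of 6 were higher, at 3.93 to 4.41 against 2.82 to 3.39, as were 3 of 9 genes of 2-cell genome activation, at 4.63 to 5.10 against 3.62 to 4.82. The summed oocyte list overlapped between experiments, at 5.83 to 6.34 against 5.74 to 6.59, while 3 of its 12 tested genes (Zar1, Tle6 and Khdc3) were lower in experiment 2. The part of these shifts in the licensing gene result was not tested.

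Between embryos of the same experiment, Mcm5 was the licensing gene that passed. In experiment 1, Mcm5 stood at -1.43 and -2.04 in the twins of pair D, was lowest in pair I (-3.60 and -3.58) and lay between them in pair L (-2.67 and -2.76). In experiment 2 its twins stood at -3.16 and -3.11 (pair D), at the floor of -4.13 and at -3.58 (pair G), and at -2.59 and -2.73 (pair H). In each experiment the twins' values of 1 embryo did not overlap those of another. The embryo means spanned 3.62-fold in experiment 1, from pair I to pair D. From pair G to pair H in experiment 2 they spanned at least 2.28-fold, since 1 cell of pair G was raised to the floor. With the lower floor that cell was at -4.95 and the span 3.04-fold, and Mcm5 did not pass (limma adjusted p = 0.140).

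The limma adjusted p for Mcm5 over the embryo contrasts was 0.0454, close to the threshold, and 1.39% of the 16700 probes were called. Fitted on the 5848 probes measured on all 12 arrays alone, 0.513% of probes and 0 licensing genes were called, with Mcm5 at 0.0849. Mcm5 was called under 6 of 26 alternatives, and the limma adjusted p ran from 0.0185 to 0.272 over all 26. Leaving out any 1 of 8 cells (those of pairs D and I in experiment 1 and of pairs D and H in experiment 2) ended the call, with adjusted p from 0.0526 to 0.137. Fitted with cell number as a replicate block, Mcm5 had a limma adjusted p of 0.0867. Within slides that held 2 embryos it was 0.140.

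Mcm6 came second and did not pass (limma adjusted p = 0.0631), with its embryos in another order than for Mcm5. In experiment 2, Mcm5 was lowest in pair G and highest in pair H, and Mcm6 the reverse. Its twins in experiment 1 lay at 2.53 and 2.49 (pair D), 1.78 and 2.06 (pair I) and 1.44 and 1.65 (pair L). Those of experiment 2 lay at 2.59 and 2.81 (pair D), 2.71 and 2.81 (pair G) and 2.14 and 1.88 (pair H). Pairs D and G of experiment 2 overlapped each other, and pair H was below both.

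Geminin had the next smallest limma adjusted p over embryos, 0.0878. Pair H of experiment 2, at 1.62 and 1.29, was below pair D (2.82 and 2.54) and pair G (2.31 and 2.55). In experiment 1, pair I was at -0.60 and 0.03, pair L at 0.00 and 0.65 and pair D at 0.78 and 0.85, so that pairs I and L overlapped. Without either cell of pair L in experiment 1, Mcm5, Mcm6 and Gmnn all passed, with 3850 and 1795 probes called over the array. The other 7 genes had limma adjusted p from 0.176 to 0.577.

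Each of the 10 genes differed less between twins than between non-sister cells of its experiment, by root mean square over 6 twin pairs and 24 other pairs. The ratio of the first to the second was 0.31 for Mcm6 and 0.47 for Gmnn, and rose to 0.92 for Orc6 and Mcm4. For Mcm5 it was 0.30 with cell 1 of pair G in experiment 2 at the floor and 0.47 with the lower floor, where that cell has its own value; the ratio was under 1 for all 10 genes with either floor. This was a common property: the ratio was under 1 for 71.9% of 11713 genes. The median ratio was 0.74 over the 10 genes and 0.80 over those 11713. Over the 4707 genes measured on all 12 arrays, where the 10 genes lie, the median was 0.84 and 71.2% were under 1.

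**Figure D3:**
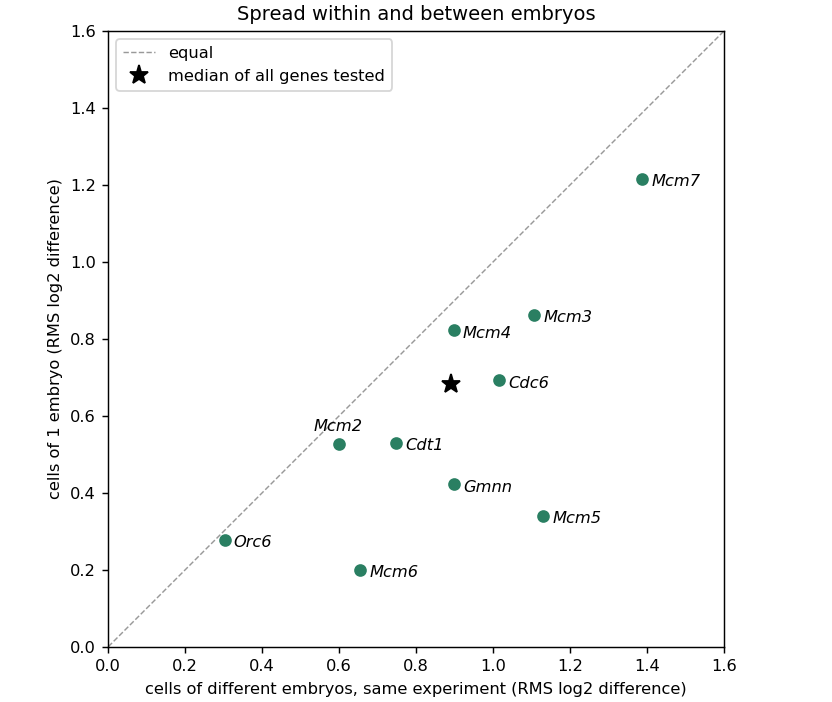
Root-mean-square log2 difference between cells of 1 embryo (vertical axis, 6 twin pairs) against that between cells of different embryos of the same experiment (horizontal axis, 24 pairs) for each licensing gene, with a star at the median of 11713 tested genes and a dashed line where both are equal. All 10 genes lie under the line; Mcm6 has a ratio of 0.31, and Mcm5 one of 0.30 that becomes 0.47 with the lower floor.

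Embryos also differed in how many licensing genes lay below their mean in the other embryos of the experiment. In experiment 1 it was 2 of 10 in pair D, 8 of 10 in pair I and 7 of 10 in pair L, against 48.1, 55.9 and 43.7% of the genes measured on all 12 arrays. In experiment 2 it was 0 of 10 in pair D, 4 of 10 in pair G and 8 of 10 in pair H, against 35.8, 55.3 and 57.3%. The median shifts of the licensing genes were 0.70, -0.25 and -0.16 in experiment 1 and 0.32, 0.25 and -0.60 in experiment 2, beside 0.03, -0.09, 0.11, 0.18, -0.08 and -0.12 for those other genes. The counts followed the scaling: with the 75th percentile of all probes, 10 of 10 were above in pair H, 0 of 10 in pair D of experiment 2 and 8 of 10 in pair I. The shift relative to the other genes kept its sign in each embryo over 7 scalings and floors. Its size was largest in pair D of experiment 1 (0.55 to 0.67) and pair H (-0.65 to -0.43). Several of these settings differ only in the floor or in a divisor per array, which can change this relative shift little. Pair D of each experiment had its slide to itself, so that embryo and slide cannot be told apart there.

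No licensing gene passed by cell number. For cell 2 minus cell 1, limma called 0 of 16700 probes (0.0%), with 731 at an unadjusted p under 0.05, and 0 of the 10 licensing genes reached even that. The estimates with the smallest p were 0.55 ± 0.27 for Mcm3, 0.20 ± 0.11 for Orc6 and 0.61 ± 0.42 for Mcm7 (SE, n = 6 pairs; limma adjusted p = 0.676, 0.676 and 0.678). On simulated data this fit called 23 of 100 probes changed 2-fold and 73 of 100 changed 4-fold. Differences of these sizes, and smaller ones, could thus be missed.

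Single twin pairs could still lie far apart. Mcm7 was at -3.68 in cell 1 and -1.00 in cell 2 of pair D in experiment 1, a difference of 2.68, and at -0.23 in both cells of pair D in experiment 2. The twins of the other embryos were at -1.70 and -1.43 (pair I), 0.07 and -0.58 (pair L), -0.89 and 0.19 (pair G) and -0.89 and -0.64 (pair H). The array of that low cell had 22.1% of spots well above background, the lowest share of the 12. On the array of its twin, cell 2, the Mcm7 spot was also well above background in the Cy3 channel, which held no sample there. The part of these in the Mcm7 values was not tested.

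Mcm3 differed by 1.41 in pair H of experiment 2, where cell 1 was at -2.42 and cell 2 at -1.02. In experiment 1 its twins were at -1.87 and -1.00 (pair D), -1.57 and -0.72 (pair I) and -1.23 and -1.69 (pair L), and in the rest of experiment 2 at -0.45 and 0.42 (pair D) and -0.23 and -0.43 (pair G). Cell 2 was thus the higher in 4 of 6 pairs. Cdc6 differed most in pair D of experiment 1, with cell 1 at -0.49 and cell 2 at -1.83, whereas its twins in pair D of experiment 2 were at -1.67 and -1.55.

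In pair I of experiment 1, all 10 licensing genes were higher in cell 2, by 0.02 for Mcm5 to 1.04 for Mcm4 with a median of 0.54. Of the genes measured on all 12 arrays, 52.5% were higher in that cell, with a median of 0.06. The count was 10 of 10 under each of 7 scalings and floors, and the excess over the other genes' median was 0.43 to 0.48. The lower floor and the floor per array left these genes' values unchanged. A different divisor per array shifts all genes above the floor alike. Agreement of the excess across these settings was thus largely fixed in advance. This pair was singled out after its values were seen. Between the same cells, the summed stroma and muscle markers went from 6.56 in cell 1 to 4.75 in cell 2, the oviduct markers from 5.72 to 3.97 and the oocyte markers from 6.04 to 6.41, and the part of these in the result was not tested.

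Mcm2, a subunit that also binds histones, was higher in cell 2 in 3 of 3 pairs of experiment 1 and lower in 3 of 3 pairs of experiment 2. The twins were at -1.88 and -1.64 (pair D), -3.02 and -2.09 (pair I) and -2.74 and -2.26 (pair L) in experiment 1. In experiment 2 they were at -1.57 and -1.59 (pair D), -1.56 and -2.04 (pair G) and -1.62 and -2.16 (pair H). The difference between these contrasts was -0.89 ± 0.28 (SE) and failed the correction (limma adjusted p = 0.913). For it limma called 0 of 16700 probes (0.0%), with 879 at an unadjusted p under 0.05. This test called 0 of 100 simulated probes changed 4-fold, so its failure to call Mcm2 or any probe decides nothing.

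Across the 12 cells, with each experiment centred on its own mean, several licensing genes went up and down together. The highest correlation of the 45 pairs was between Mcm6 and Cdt1 (Pearson r = 0.88, Spearman rho = 0.86), whose promoters are printed above, with r of 0.91 in experiment 1 and 0.89 in experiment 2. Cdt1 and its inhibitor geminin followed, at r = 0.77 (rho = 0.76; 0.68 and 0.84 within the experiments). Cdc6 and Gmnn had r = 0.74, as did Mcm6 and Gmnn. Without the pair of cells farthest from the median of the first-named gene, these became 0.80 for Mcm6 and Cdt1, 0.71 for Cdt1 and Gmnn, 0.77 for Cdc6 and Gmnn and 0.64 for Mcm6 and Gmnn.

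The 6 helicase subunits did not form a tight group. Their 15 pairs had a median r of 0.12, with 9 above 0, from -0.44 for Mcm3 and Mcm5 to 0.67 for Mcm2 and Mcm6. The value for Mcm6 and Mcm7 was -0.39 over all cells, but -0.71 in experiment 1 and 0.56 in experiment 2. Of the 45 pairs of all 10 genes, 25 had the same sign in both experiments. Over all 45 pairs the median was 0.24 and 30 were above 0, against 0.02 and 52.4% for all pairs of genes measured on every array. An r above 0.7 was reached by 4 of 45 pairs and by 2.17% of all pairs. Twins share an embryo and a slide and all 12 cells share their scaling, so these values describe the cells and carry no test.

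**Figure D4:**
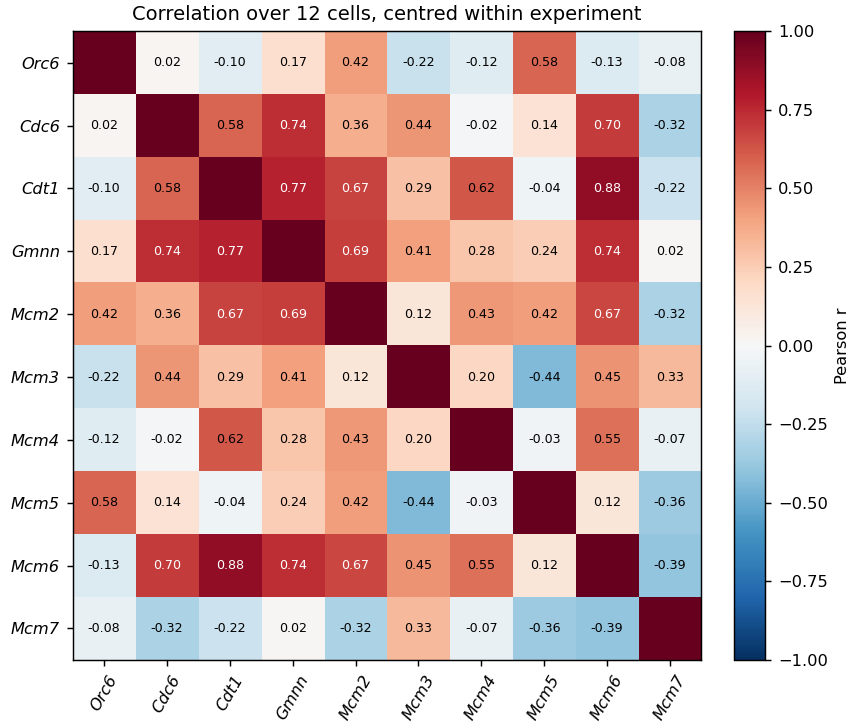
Pearson correlation between licensing genes over 12 cells, after centring each gene within its experiment (colour scale, -1 to 1; both axes list the 10 genes). Cdc6, Cdt1, Gmnn, Mcm2 and Mcm6 form a block of positive values that reaches 0.88, while Orc6, Mcm5 and Mcm7 stand largely outside it.

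Among 4706 other genes measured on all 12 arrays, the nearest to Cdt1 by the same measure were Katna1, the catalytic subunit of the microtubule-severing enzyme katanin (r = 0.97), and the translation initiation factor Eif1 (0.93). Those nearest to Mcm6 were Zfp707 (0.97) and the small nuclear RNA activating factor Snapc2 (0.96). Gmnn lay nearest to the ribosome assembly genes Mrto4 (0.92) and Surf6 (0.92). Mcm5 lay nearest to Nrbp1 (0.90) and to Slbp, which binds the stem-loop of histone mRNAs (0.88).

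For the remaining genes the nearest were Fem1c and Spata2 for Mcm2 (0.86 each), Ptbp1 and Slc35e3 for Mcm3 (0.89 and 0.87), and Med26 and Pak1ip1 for Mcm4 (0.88 each). Mcm7 had Ecm1 and Herc4 (0.94 each), Orc6 had Wdr47 and Mat2b (0.89 and 0.88), and Cdc6 had Wdr62 and Nacc1 (0.91 and 0.90). No licensing gene was among the nearest pair of another.

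The wider replication pathway was read from a list of 61 genes, of which 59 were on the array and 54 tested. Between the experiments 7 were called higher and 1 lower, against 3.96 and 4.16% of all tested probes. Among the 5848 probes measured on all 12 arrays, fitted alone, 11.3% were called higher, but not all of the 54 were so measured. The median difference was 0.35, with 45 of 54 at or above 0. These 45 include E2f7, whose means were at the floor in both experiments. Over all 11713 tested genes the median was 0.19 and 62.3% were above 0. Rpa3, the smallest subunit of the single-strand binding protein RPA, had the smallest adjusted p (difference 1.15 ± 0.19, SE; limma adjusted p = 0.00370), but stood at the floor in all cells of experiment 1, so that this difference depends on the floor. Tipin, which stabilises the fork with Timeless, was 3.29-fold higher (limma adjusted p = 0.0102). Mcm10, which helps to activate the loaded helicase, was 2.64-fold higher (limma adjusted p = 0.0186). E2f4, an E2F member mostly linked to repression, was 2.13-fold higher (limma adjusted p = 0.0165). E2f4 was measured on 10 of 12 arrays, and its mean in experiment 1, at -3.85, was near the floor. Its fold difference may therefore depend on the floor.

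Lig1, the ligase that seals Okazaki fragments, was 2.27-fold lower (limma adjusted p = 0.0401). By role, the calls were 3 higher and 1 lower of 18 fork genes, 1 higher of 11 helicase activation genes, 1 of 7 genes that control Cdt1 and geminin, 1 of 4 MCM relatives and binders, 1 of 8 E2F drivers and 0 of 6 further origin recognition genes. The 6 origin recognition genes had a median difference of 0.16, beside 1.50 for Orc6. Orc1, Orc3 and Orc5 had means from -3.89 to -3.33, near the floor, so their differences may depend on it. Those measured on all 12 arrays were Orc4 (0.87), Lrwd1 (0.09) and Orc2 (-0.11).

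Over embryos, cell number and the interaction, 0 of the 54 genes passed in limma. The smallest unadjusted p over embryos belonged to Chtf18 and Fzr1 (limma adjusted p = 0.0703 and 0.0727). For cell number they belonged to Mcmbp, which binds MCM complexes, and to Pole, the catalytic subunit of DNA polymerase epsilon (both at a limma adjusted p of 0.676). For the interaction they belonged to Pole and Rfc1 (both 0.913).

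**Figure D5:**
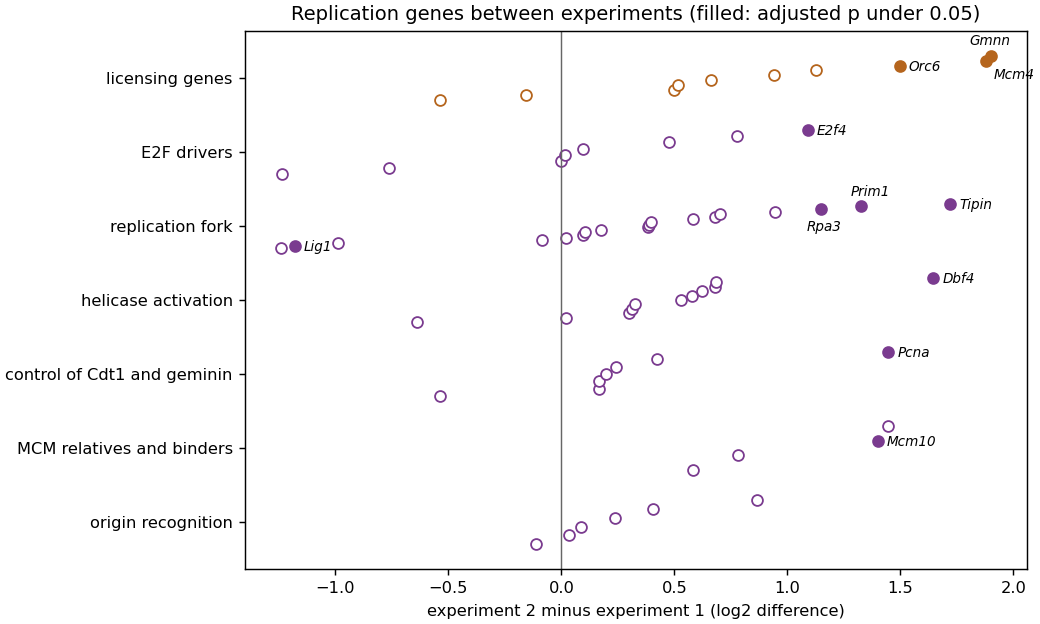
Difference between experiment 2 and experiment 1 (horizontal axis, log2 difference) of 54 tested replication genes grouped by role and of the 10 licensing genes, 1 point per gene, filled and named where the limma adjusted p was under 0.05. Of the 54, 7 are filled on the right and Lig1 on the left.

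Of the 13 probes, 3 are second probes of a gene. Those of Mcm3 and Mcm4 were measured on 4 and 3 arrays, all of experiment 2, and were not tested. The second probe of Cdc6 was measured on 6 arrays, 2 of experiment 1 and 4 of experiment 2, and stood at the floor on 8. Its difference between experiments was 0.42 ± 0.47 (SE; limma adjusted p = 0.652), so the probes of Cdc6 differed in sign and neither passed.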

How the data were processed

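RNA of 12 blastomeres was measured on 12 arrays. The values are spot intensity, read from the scans by the authors with Agilent Feature Extraction (version 9.1.3.1, per the file headers). The signal sits in Cy5 in experiment 1 and in Cy3 in experiment 2, although the labels name Cy3 throughout. The processed signal of that channel was taken without outlier spots, averaged per probe and divided by the array's 75th percentile over the 5848 probes that stood well above background on all 12, because most spots of 9 arrays were not detected. A floor shared by all arrays (log2 of -4.13) was set where the least sensitive array's well-above-background signals end, and log2 was taken after it. The deposited value table is linear intensity, the same signal divided by 1 constant per array, and served as an alternative.

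The 16700 probes that stood well above background on 6 or more arrays were fitted with limma 3.58.1 in R 4.3.3: embryos by a moderated F over 4 contrasts, each within 1 experiment; experiments with embryo as the random block (correlation 0.35); and cell number, alone and by experiment, with embryo as the fixed one. Calls are Benjamini-Hochberg adjusted p under 0.05 over all tested probes. A gene is read by its tested probe of highest mean. Scripts were tested on simulated data. Of 100 probes changed 4-fold, the fits called 40 over embryos, 87 between experiments, 73 by cell number and 0 for the interaction. Of 100 changed 2-fold, they called 7, 43, 23 and 0. The simulated cells were drawn independently, with the spread between twins and no added spread between embryos. The measured twins were correlated (0.35), so the counts between experiments can be too high for these data. Gene names came from assembly GRCm38.p6 for 22951 probes matched by accession. A further 8670 kept the file's name, 3097 had an older name in the file updated, and 6456 had none. Cell numbers pair the twins of an embryo, per the labels.

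Named genes are all 10 licensing genes, per contrast up to 4 higher and 4 lower pathway genes of smallest adjusted p (the 2 of smallest unadjusted p where none passed), and the 2 genes nearest to each licensing gene. The genes, lists and rules were chosen with earlier results of these data known.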

Additional observations from a re-analysis of the deposited data

Results flagged for a closer look

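The second probe of Cdc6 had a cell far from the others in each experiment. In experiment 1, cell 2 of pair L was at -3.24 while the other cells were at the floor of -4.13. In experiment 2, cell 1 of pair G was at -1.98, with the others between -4.13 and -3.49. Dixon's criterion for 6 cells was passed by 2 of 24 sets tested, where chance gives about 1 in 20. Both are of this probe, which stood at the floor on 8 arrays. With the other cells of experiment 1 all at the floor, the criterion passes there by construction and says nothing about that cell. In experiment 2, cell 1 of pair D and cell 2 of pairs G and H were also at the floor. The rate of 1 in 20 does not hold for values cut off in this way, so that cell is not established as an outlier either.

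Mcm2 had opposite twin differences in the experiments, with cell 2 higher in 3 of 3 pairs of experiment 1 and lower in 3 of 3 of experiment 2. The difference of -0.89 had an unadjusted p of 0.0220 and an adjusted p of 0.913 in limma's test. That test called 0 of 100 simulated 4-fold changes.

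In the Cy3 channel of experiment 1, which held no sample, 1 spot of the licensing gene probes was well above background, that of Mcm7 on the array of cell 2 of pair D. Between 68 and 160 spots per array were so in that channel.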

How the results depend on the processing

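The count of licensing genes called between experiments was 3. It moved to 0 when signals were scaled by the 75th percentile of all probes, with that setting's higher floor, and with a floor per array. It was 2 to 4 over single cells left out and 2 to 4 under all other alternatives. The count over embryos was 1 and kept that value under quantile normalization. It was 0 with the 75th percentile of all probes, normexp, the lower common floor, the floor per array, the deposited values, probes measured on all 12 arrays, the mean of a gene's probes, slides with 2 embryos, either experiment alone, and without both cells of pair D in experiment 2 (chosen after seeing the data). It was 2 with no filter and 0 to 3 over single cells left out. For cell number and the interaction it was 0 throughout, single cells left out included (0 to 0). On simulated data the interaction fit called 0 of 100 probes changed 4-fold, so its count of 0 does not show that no gene differed. The cell number fit called 73 of 100 changed 4-fold and 23 of 100 changed 2-fold.

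With cell number as a replicate block the count was 0 over embryos and 3 between experiments; with no replicate block in place of the pairing by embryo it was 0 for cell number and 0 for the interaction. The estimate for Cdc6 between experiments turned to 0.034 with the deposited values and 0.13 with the mean of its probes, and ran from -0.26 to 0.079 over single cells left out. The estimate for Orc6 by cell number turned to -0.31 with the 75th percentile of all probes. The mean of embryos left Gmnn at an adjusted p of 0.0736 in limma, with 2 genes called. Probes called over embryos ran from 0 to 3850 over single cells left out (232 in the fit of all cells), and from 0 (with the replicate block or in experiment 1 alone) to 4345 (with a floor per array) under other alternatives. Between experiments they ran from 172 to 1961 (1357 in that fit). The number of arrays and their unequal detection limit what these data can show.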
